A study of Syringa oblata with 2 samples.

Results

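Basic helix-loop-helix (bHLH) proteins form a large family of plant transcription factors. The basic stretch touches the DNA, the adjoining pair of helices lets the proteins form dimers, and dimers commonly bind a short palindrome called the E-box. Some members lack a working basic stretch and act by capturing other bHLH proteins. In leaves, members of the family are known for the control of flavonoid pigments and leaf hairs, jasmonate responses, stomata, cold tolerance, iron supply and cell elongation.

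The unigenes described here are those of *Syringa oblata* (a lilac) whose best Swiss-Prot match carried a bHLH type name, such as transcription factor bHLH, MYC, ICE, UNE or GLABRA 3. Of 73159 unigenes, 120 carried such a name. The rule then left out 20 unigenes placed in the KEGG plant circadian rhythm pathway and 8 whose best match in the Nr protein database was a rice (*Oryza*) sequence, with 2 in both sets, which left 94. No unigene had to be left out by the name PIF. Among the 94, DN18913_c0_g1 had entered through the yeast gene name PRE10, which belongs to a proteasome subunit and not to a bHLH protein, so 93 unigenes were counted as members. DN18913_c0_g1 was measured at 3.18 and 6.36 TPM in the open-grown Z0 libraries compared with 1.14 and 1.23 TPM in the shaded Z1 libraries.

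Leaves of trees grown in the open were compared between natural light without a net (Z0) and a black net that gave 40% to 50% shading (Z1), with the nets set up in May and the leaves collected in September. Each condition had 2 RNA-seq libraries, which the study called biological repeats. The sources used here do not say which trees went into which library, so a difference between conditions was read against a spread that may be partly technical. Levels were given as TPM, a measure of transcript abundance that is corrected for unigene length and scaled to the same total in each library.

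All 4 leaf markers were abundant in the 4 libraries, with 12074 to 13507 TPM for 4 unigenes of the Rubisco small subunit and 7863 to 8118 TPM for 22 unigenes of chlorophyll a-b binding proteins. The other leaf markers were lower in both Z1 libraries, as 13 photosystem I subunit unigenes summed to 5595 and 5993 TPM against 3886 and 5234 TPM, and 5 oxygen-evolving enhancer unigenes to 2745 and 2625 TPM against 1744 and 2199 TPM. The flower regulator AGAMOUS was at no more than 2.42 TPM, DEFICIENS at no more than 1.42 TPM, no unigene was named GLOBOSA, and the root marker Casparian strip membrane protein was at no more than 2.12 TPM. Unigenes named pollen-specific summed to 69.2 to 110.54 TPM without a clear order of the libraries. Unigenes of other organisms stood apart between libraries. Those matched to a carlavirus (10 unigenes) held 22.8% and 13.9% of all TPM in the Z0 libraries against 0.147% and 0.0505% in the Z1 libraries, so presence of the virus and light condition cannot be told apart. Unigenes matched to rice (5648 unigenes) summed to 2436 to 2955 TPM in 3 libraries and to 32957 TPM in Z1 library 2. In bulk leaf RNA, fewer cells of a type and less RNA per cell cannot be told apart.

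The 93 members carried 43 distinct Swiss-Prot names, and 92 of them were matched to proteins of *Arabidopsis thaliana*, so the names and roles below are those of the nearest Arabidopsis protein and were not tested in lilac. The best Nr match was most often a sesame (*Sesamum*) protein, in 37 members. Members were 201 to 2797 nt long with a median of 1046 nt, against 430 nt over all unigenes and 810 nt over unigenes with a Swiss-Prot name. A helix-loop-helix domain was annotated in 48 members, the N-terminal domain of MYC type bHLH proteins in 12, another domain alone in 2, and none in 31. The members fell into 65 components of the assembly (groups of contigs that share sequence, given by the DN and c numbers), and 17 components held several members, 45 in all and at most 5 in one component. Unigenes of a component can be alleles, splice forms, close copies or pieces of the same gene, and they are not independent of each other.

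No sequence of a member was given in the files used here. The sequences that could be printed are the qPCR primers of the bHLH unigene that the study singled out, DN28965_c1_g8. The study included this unigene in its own qPCR and reported the bHLH transcript as up-regulated. That qPCR was not re-examined here.
Forward primer of DN28965_c1_g8: ggaagacagttcagccgacagaag
Reverse primer of DN28965_c1_g8: ggcgacaaggcagcagaagg
The forward primer has 24 nt and the reverse primer 20 nt. DN28965_c1_g8, 2525 nt long, was not a member under the rule, because its Swiss-Prot match was called "Basic helix-loop-helix protein A", a pea protein required for anthocyanin colour of the flower. It was measured at 0.27 and 0.65 TPM in the open-grown Z0 libraries compared with 8.34 and 4.13 TPM in the shaded Z1 libraries. Both shaded libraries were thus higher than both open-grown ones, with a log2 fold change of 2.26 (SE 0.40, n = 2 per condition) on the log2(TPM + 1) scale. The limma test over all unigenes gave an unadjusted p of 0.0032 and a Benjamini-Hochberg adjusted p of 0.0528, just outside the threshold of 0.05. The side of the threshold depended on the processing. The limma adjusted p was 0.0365 when at least 5 TPM in 1 library was required. It was 0.0457 with the library number as a block and 0.0379 without rice-matched unigenes. With other pseudocounts, median ratio or TMM scaling, or without carlavirus-matched unigenes, it was 0.0586 to 0.0976.

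Most members were weakly expressed. Averaged over the 4 libraries, 4 members were under 1 TPM, 65 between 1 and 10 TPM and 24 between 10 and 50 TPM, and none reached 50 TPM. The median member was at 2.85 and 3.26 TPM in the open-grown Z0 libraries compared with 4.24 and 3.32 TPM in the shaded Z1 libraries. Together the members summed to 564.6 and 685.1 TPM under natural light and 804.2 and 790.1 TPM under shade, so the summed level did not overlap between conditions. As a share of all TPM this was 0.056% and 0.069% against 0.080% and 0.079%. With the carlavirus and rice unigenes taken out of the total, the shares were 0.073% and 0.080% against 0.081% and 0.082%, and the separation between conditions was narrower.

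The 10 most abundant members, ranked by their mean over the 4 libraries, held 38.1% and 36.6% of the members' TPM in the Z0 libraries and 43.5% and 42.9% in the Z1 libraries. They include bHLH3 DN37976_c1_g3, at 0.47 and 1.18 TPM in Z0 against 39.69 and 41.48 TPM in Z1. The ranking used the same libraries, so the higher share in Z1 is not a separate result. The highest mean level belonged to bHLH25 (DN36165_c0_g4), followed by bHLH130 (DN35191_c0_g2), MYC2 (DN30860_c0_g1), bHLH47 (DN38224_c1_g1) and GLABRA 3 (DN37757_c0_g1). bHLH25 was at 54.36 and 56.28 TPM in the open-grown Z0 libraries compared with 30.74 and 55.15 TPM in the shaded Z1 libraries. Neighbours in this order overlapped in their library values, so the order was not resolved beyond the spread of the libraries.

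Few members passed the adjusted test between light conditions, which had 2 libraries each. With limma on log2(TPM + 1) over all 73159 unigenes, an adjusted p under 0.05 and a change beyond 1 on the log2 scale, 3 of 93 members (3.23%) rose in Z1 and 2 of 93 (2.15%) fell, while 88 did not pass. The same call was made for 3.20% (higher) and 1.80% (lower) of all unigenes, so the members were called about as often as the transcriptome at large. At an unadjusted p under 0.05 with the same limit on the log2 change, as in all such counts below, there were 15 higher (16.1%, against 16.5% of all unigenes) and 9 lower (9.68%, against 7.71%). Without the rice-matched unigenes 10 members were called higher and 5 lower (10.8% and 5.38%, against 8.2% and 3.9% of the 67511 unigenes then tested), and without the carlavirus-matched unigenes 2 and 4 (2.15% and 4.3%, against 2.18% and 2.48%). With Z0 library 1, Z0 library 2 or Z1 library 2 left out, 0 unigenes of the whole table passed, so the loss of the 5 calls there says nothing about these members. Without Z1 library 1, where 8233 unigenes passed as higher and 145 as lower, none of the 5 did (limma adjusted p = 0.0573 to 0.0924), while over the 4 omissions the log2 difference stayed at 4.25 to 4.82 for bHLH3, 1.81 to 2.47 for bHLH41, 1.98 to 2.19 for bHLH148 and -2.72 to -2.30 for bHLH140.

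Both Z1 libraries lay above both Z0 libraries in 44 members (47.3%, against 41.5% of all unigenes), both lay below in 18 members (19.4%, against 18.2%), and the conditions overlapped in 31. With a log2 change beyond 1 as well, the counts were 16 above (17.2%, against 19.5%) and 12 below (12.9%, against 9.23%). The median log2 fold change of the members was 0.28, against 0.45 for all unigenes, and 60 of 93 were above 0 (64.5%, against 69% of all). These shares and the median over all unigenes apply as well beside the counts and medians of the small groups and lists below. Other scalings moved the median of all unigenes by -0.22 (median ratio) and -0.32 (TMM), and the median of the members then came to 0.10 and -0.04, so the small general rise turned its direction under TMM.

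Differences without overlap and beyond 1 on the log2 scale, in either direction, were about as frequent among the members (28 of 93, 30.1%) as among all unigenes (28.7%). The median size of the difference was 0.54 on the log2 scale against 0.75 over all unigenes, which are shorter, and 43 members differed by less than 0.5. The spread between libraries of the same condition was 0.33 for Z0 and 0.26 for Z1 (median absolute difference of log2 values over the members), against 0.33 and 0.40 over all unigenes. Library pairs of a condition resembled each other more closely than pairs across conditions, with Pearson r over the 93 log2 values of 0.943 (Z0) and 0.925 (Z1) within conditions and 0.612 to 0.691 between them. These points share libraries and, within components, sequence, and the coefficients are given as a description.

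**Figure D1:**
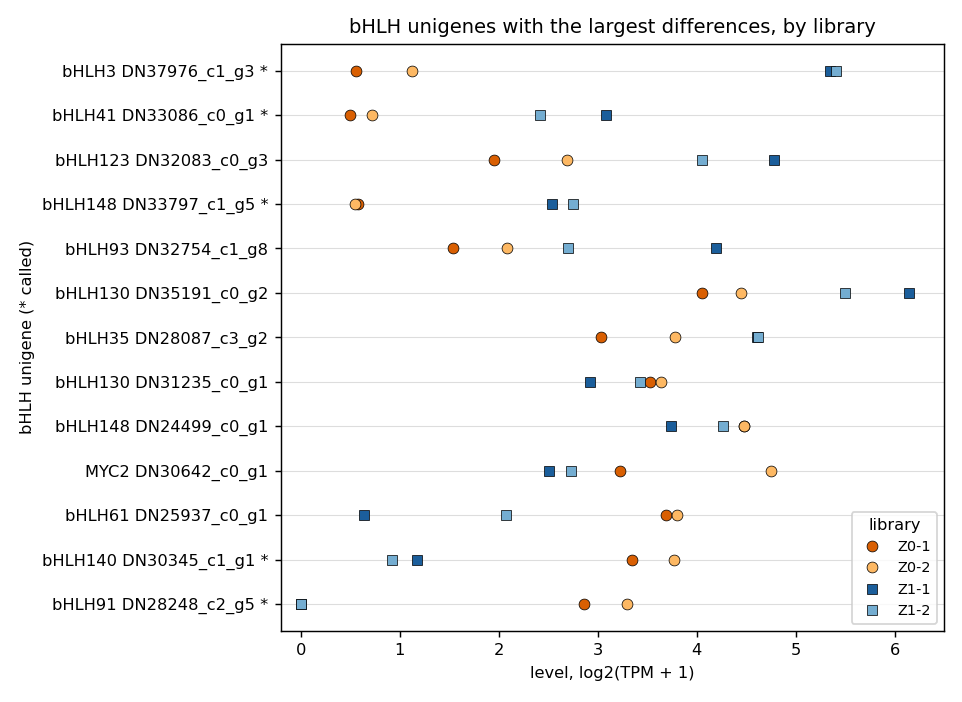
Level of each called member and of the members with the largest differences among members without overlap whose higher condition reached 10 TPM, on the log2(TPM + 1) axis, 1 point per library (circles Z0, squares Z1, an asterisk marks a call). The widest gap belongs to bHLH3 DN37976_c1_g3, at 0.47 and 1.18 TPM under Z0 compared with 39.69 and 41.48 TPM under Z1, while both Z1 points of bHLH91 DN28248_c2_g5 are at 0.

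Rutin, a flavonoid, was the subject of the study, and bHLH proteins regulate flavonoid genes together with MYB proteins. GLABRA 3 (GL3) joins R2R3-MYB proteins and a WD40 protein in the complex that controls leaf hairs and flavonoid genes in Arabidopsis. The GL3 unigene DN37757_c0_g1 (2199 nt) was at 18.51 and 23.45 TPM under Z0, against 31.25 and 27.06 TPM under Z1. Its conditions did not overlap, but the log2 difference of 0.46 (SE 0.23) did not pass (limma adjusted p = 0.263). That difference was 0.16 and 0.02 under median ratio and TMM scaling. The GL3 unigene DN28741_c0_g2 (2304 nt) was at 9.84 and 8.63 TPM under Z0 versus 6.75 and 9.29 TPM under Z1, with overlapping conditions and a log2 difference of -0.19. No member carried the name TRANSPARENT TESTA 8, the seed coat regulator of the same subgroup.

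A list of 9 unigenes held the WD40 protein and MYB proteins of flavonoid and leaf hair control, among them MYB12, which activates flavonol genes without a bHLH partner in Arabidopsis. Of these 9, none passed the limma test in either direction at the adjusted threshold, 3 were higher and 0 lower when the unadjusted p was read at 0.05, and their median log2 fold change was 0.95. Both Z1 libraries were above both Z0 libraries in 7 of the 9 and below in 0, against 41.5% and 18.2% of all unigenes. Over all unigenes the median was 0.45, and 16.5% were higher and 7.71% lower at the unadjusted threshold. The WD40 protein TRANSPARENT TESTA GLABRA 1 (DN32708_c0_g1), chosen here after its values were seen, was at 20.95 and 32.57 TPM under Z0 compared with 55.19 and 47.65 TPM under Z1. Its log2 difference was 0.95 (SE 0.29, limma adjusted p = 0.118), so it too was higher in both shaded libraries without passing the test.

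Among the bHLH proteins of jasmonate signalling, MYC2 is the activator that JAZ repressors hold inactive until the hormone arrives, whereas bHLH3, bHLH13 and bHLH14 compete with MYC2 as repressors in Arabidopsis. Of 11 such members, 1 rose, 0 fell and 10 did not pass, with a median log2 fold change of 0.41. The main MYC2 unigene, DN30860_c0_g1 (2521 nt), was at 32.68 and 27.24 TPM under Z0, against 38.46 and 41.53 TPM under Z1. Both Z1 libraries were higher, yet the log2 difference of 0.41 (SE 0.21) did not pass (limma adjusted p = 0.273) and was -0.04 under TMM scaling. The other well expressed MYC2 unigene, DN30642_c0_g1 (1528 nt), was at 8.33 and 25.86 TPM under Z0 versus 4.68 and 5.65 TPM under Z1. Z0 library 2 was far above the other libraries there, and the log2 difference of -1.37 (SE 0.55) did not pass (limma adjusted p = 0.19).

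The bHLH3 unigenes carried the largest rise among the members. The 344-nt unigene DN37976_c1_g3 was at 0.47 and 1.18 TPM under Z0 compared with 39.69 and 41.48 TPM under Z1. Both shaded libraries lay far above both open-grown ones, with a log2 fold change of 4.54 (SE 0.29, limma adjusted p = 0.0334). The longer bHLH3 unigene of the same component, DN37976_c1_g1 (1968 nt), was at 11.65 and 15.5 TPM under Z0, against 28.54 and 26.19 TPM under Z1. It was higher in both Z1 libraries by 0.97 on the log2 scale (SE 0.24) without passing (limma adjusted p = 0.0835). Under median ratio and TMM scaling this difference was 0.67 and 0.54. A further bHLH3 unigene, DN37976_c1_g6 (1894 nt), overlapped between conditions, at 3.21 and 7.17 TPM under Z0 versus 4.74 and 4.46 TPM under Z1. The bHLH13 unigenes, all of component DN31567_c0, stayed at 1.8 to 5.38 TPM in the 4 libraries with log2 differences of -0.09 to 0.63.

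A list of 28 unigenes held JAZ and TIFY names, the family that includes the JAZ repressors, and the jasmonate receptor COI1. Of these, 0 rose and 0 fell at the adjusted threshold, and 1 was higher and 1 lower at an unadjusted limma p under 0.05. Among the 28, 6 were seen in Z1 library 2 alone (at least 1 TPM there and under 1 TPM elsewhere), the library with the high rice-matched TPM, and no median is given for the list. The JAZ type unigene TIFY3B (DN37175_c0_g1), chosen after its values were seen, was at 17.22 and 80.75 TPM under Z0 compared with 5.25 and 7.98 TPM under Z1. As for MYC2 DN30642_c0_g1, Z0 library 2 stood apart. What set that library apart for these unigenes was not tested.

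**Figure D2:**
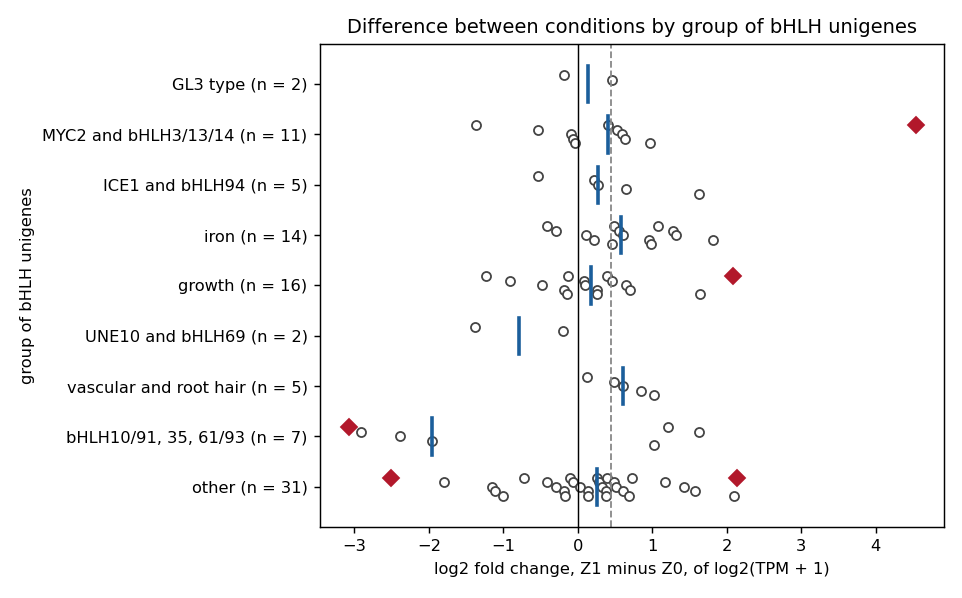
Log2 fold change (Z1 minus Z0, of log2(TPM + 1)) of each of the 93 members, by group, with open circles for members that did not pass, red diamonds for the 5 called members, a blue bar for the group median and a dashed line at 0.45, the median of all unigenes. The iron members have a median of 0.57 and the group labelled vascular and root hair (bHLH30, bHLH106 and bHLH157) one of 0.61, without a call in either. The values of bHLH10 and bHLH91, listed at 0 in Z1, depend on the pseudocount.

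ICE1, also called SCREAM, activates cold response genes and pairs with the stomatal regulators SPEECHLESS, MUTE and FAMA in Arabidopsis. No member was named SPEECHLESS. The ICE1 unigene DN24082_c0_g1 (1622 nt) was at 2.85 and 3.92 TPM under Z0, against 5.16 and 6.48 TPM under Z1. Both Z1 libraries were higher, with a log2 difference of 0.64 (SE 0.27, limma adjusted p = 0.203). The ICE1 unigenes DN34161_c0_g3 and DN35755_c0_g1 overlapped between conditions, with log2 differences of 0.27 and 0.21, and the latter was -0.02 and -0.13 under median ratio and TMM scaling. The bHLH94 unigenes were weak and went opposite ways. DN21691_c0_g1 was at 2.19 and 2.63 TPM under Z0 versus 1.68 and 1.03 TPM under Z1, and DN24940_c0_g1 at 0.05 and 0.15 TPM versus 4.82 and 1 TPM (log2 differences -0.54 and 1.63, limma adjusted p = 0.292 and 0.166). Of these 5 members none passed in either direction at the adjusted threshold, and at an unadjusted limma p under 0.05 there was 1 higher and 0 lower.

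Of 7 unigenes for the secreted peptides and receptors that act upstream of the stomatal bHLH proteins, 0 rose and 1 fell. The one that fell was EPFL9 (DN35830_c0_g3, 732 nt), whose Arabidopsis counterpart, stomagen, is made in the mesophyll and promotes stomata. It was at 18.67 and 12.73 TPM under Z0 compared with 0.34 and 0.59 TPM under Z1. Both shaded libraries were far below both open-grown ones, by -3.49 on the log2 scale (SE 0.30, limma adjusted p = 0.0334). The median log2 fold change of the 7 was -0.21.

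Regulators of iron supply made up 14 members. In Arabidopsis bHLH104 and bHLH115 switch on the response to iron shortage, bHLH121 works with them, bHLH47 (POPEYE) restrains part of the response, and bHLH18, bHLH19, bHLH20 and bHLH25 affect the stability of the root iron regulator FIT. None of the 14 passed in either direction at the adjusted threshold. At an unadjusted limma p under 0.05, 2 were higher and 0 lower (against 16.5% and 7.71% of all unigenes). Both Z1 libraries were above both Z0 libraries in 9 and below in 1 (against 41.5% and 18.2% of all unigenes). The median log2 fold change was 0.57, against 0.45 for all unigenes. The bHLH104 unigene DN28837_c0_g3 was at 2.77 and 3.68 TPM under Z0, against 10.28 and 8.74 TPM under Z1. The log2 difference of 1.32 (SE 0.25) just missed the threshold (limma adjusted p = 0.0587), and was 1.06 and 0.94 under median ratio and TMM scaling. The sum over the 4 unigenes of its component went the other way, at 365.02 and 438.93 TPM under Z0 compared with 236.99 and 278.68 TPM under Z1. For bHLH115 (DN27221_c0_g3) the levels were 9.94 and 10.89 TPM under Z0 versus 18.29 and 25.32 TPM under Z1. It was higher in both shaded libraries by 0.98 (SE 0.25, limma adjusted p = 0.0904), and by 0.69 and 0.55 under median ratio and TMM scaling.

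The most abundant iron members changed less. bHLH47 (DN38224_c1_g1) was at 18.41 and 26.07 TPM under Z0 compared with 31.6 and 29.56 TPM under Z1. Its log2 difference was 0.46 (SE 0.25, limma adjusted p = 0.297), and 0.16 and 0.02 under median ratio and TMM scaling. The bHLH25 unigenes went different ways, since the abundant DN36165_c0_g4 differed by -0.42 with overlapping conditions. By contrast the weaker DN26749_c0_g1 was at 0.86 and 1.48 TPM under Z0, against 9.14 and 4.68 TPM under Z1, higher in both shaded libraries by 1.82 (SE 0.39, limma adjusted p = 0.0685). One iron member was seen in a single library: the bHLH115 unigene DN18166_c0_g1 (290 nt), whose best Nr match is the grass *Eleusine*, was listed at 0 in both Z0 libraries and in Z1 library 1 and at 4.92 TPM in Z1 library 2. That library is the one with the high rice-matched TPM, and the 8 bHLH rows left out for a rice match were likewise at 2.95 to 9.35 TPM in it and at no more than 0.22 TPM in the others.

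Of 12 unigenes for iron uptake, transport and the ligase BRUTUS, which acts on iron bHLH proteins, none rose or fell at the adjusted threshold, while 2 were higher and 1 lower at an unadjusted limma p under 0.05. The median log2 fold change was 0.22. Nicotianamine synthase (DN25480_c0_g2), which makes an iron chelator and was chosen after its values were seen, was at 5.67 and 8.62 TPM under Z0 versus 22.28 and 33.23 TPM under Z1. Both Z1 libraries were higher, by 1.82 (SE 0.32, limma adjusted p = 0.0534).

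Members linked to cell elongation and brassinosteroids numbered 16. In Arabidopsis bHLH49 and bHLH74 promote elongation, whereas bHLH148 and bHLH149 belong to the small proteins that do not bind DNA themselves and restrain growth by capturing such activators. Of the 16, 1 rose, 0 fell and 15 did not pass, with a median log2 fold change of 0.17. The most abundant were bHLH149 DN28470_c0_g8, bHLH148 DN33797_c1_g4 and bHLH148 DN24499_c0_g1. bHLH149 DN28470_c0_g8 was at 20.13 and 28.22 TPM under Z0 compared with 30.22 and 21.34 TPM under Z1, so its conditions overlapped, and the log2 difference of 0.09 became -0.21 and -0.35 under median ratio and TMM scaling. bHLH148 DN24499_c0_g1 was at 21.29 and 21.2 TPM under Z0, against 12.36 and 18.16 TPM under Z1, lower in both shaded libraries by -0.48 without passing (SE 0.26, limma adjusted p = 0.301).

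The member of this group that rose was a short unigene of bHLH148, DN33797_c1_g5 (227 nt), at 0.49 and 0.46 TPM under Z0 versus 4.82 and 5.71 TPM under Z1. The shaded libraries lay well above the others, with a log2 fold change of 2.08 (SE 0.26, limma adjusted p = 0.0385). The 1030-nt unigene of that component, DN33797_c1_g4, was at 15.74 and 28.29 TPM under Z0 compared with 18.71 and 19.11 TPM under Z1, with overlapping conditions. No counted member carried a BEE, HBI1 or IBH1 name.

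Of 38 unigenes of brassinosteroid signalling, 2 rose and 0 fell, with a median log2 fold change of 0.40. The co-receptor BAK1 (DN33309_c0_g4) was at 7.86 and 9.67 TPM under Z0, against 25.72 and 23.49 TPM under Z1, a rise of 1.40 (limma adjusted p = 0.0477). ASK5 (DN35052_c2_g2), a kinase of the Shaggy type that includes the repressor of this pathway, was at 0.06 and 0.05 TPM under Z0 versus 15.72 and 16.52 TPM under Z1, a rise of 4.02 (limma adjusted p = 0.0334). Both shaded libraries were above both open-grown ones for each. The more abundant ASK5 unigene DN36829_c0_g1, of another component, was at 58.9 and 73.59 TPM under Z0 versus 92.76 and 76.18 TPM under Z1. Its log2 difference of 0.35 did not pass (limma adjusted p = 0.384). The BAK1 call was lost with either other pseudocount, under TMM, with the replicate block and without the carlavirus unigenes (log2 difference 0.97 to 1.48), and BAK1 DN33309_c0_g2 of the same component lay at 15.21 and 34.67 TPM under Z0 versus 15.16 and 11.81 TPM under Z1, with a log2 difference of -0.74. Of 6 DELLA and gibberellin receptor unigenes, and of 5 unigenes named for the phytochrome-interacting bHLH proteins PIF, which the rule left outside the members, none passed at the adjusted threshold. At an unadjusted limma p under 0.05 the DELLA and receptor list had 1 higher and 1 lower and the PIF list 0 and 0, and the medians were 0.50 and -0.16.

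The group labelled vascular and root hair held 5 members, named bHLH30, bHLH106 or bHLH157, of which none passed. The root hair relative bHLH69 was grouped with UNE10 below. bHLH30 is a relative of TMO5, which with LONESOME HIGHWAY drives divisions in vascular tissue of Arabidopsis. Its main unigene, DN29885_c1_g2 (1739 nt), was at 19.31 and 19.49 TPM under Z0 compared with 31.12 and 29.09 TPM under Z1. The libraries of a condition were close and did not overlap with the other condition, with a log2 difference of 0.61 (SE 0.20, limma adjusted p = 0.131). That difference was 0.31 and 0.17 under median ratio and TMM scaling. In DN29885_c1_g4, of the same component, the values were 3.79 and 4.7 TPM against 5.99 and 6.57 TPM, and DN28134_c0_g2 overlapped between conditions at 1.79 to 2.7 TPM, with a log2 difference of 0.12 that was -0.10 and -0.20 under median ratio and TMM scaling. Both Z1 libraries were above both Z0 libraries in 4 of the 5 (against 41.5% of all unigenes). The median log2 fold change was 0.61, against 0.45 for all unigenes.

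UNE10, a relative of the PIF proteins also known as PIF8, was represented by DN31454_c2_g1 (1774 nt), at 15.67 and 12.47 TPM under Z0, against 9.41 and 15.36 TPM under Z1. Its conditions overlapped, and the log2 difference was -0.20 (SE 0.31). bHLH69 (DN23143_c0_g1), of the family that acts in root hair growth, was at 3.62 and 0.95 TPM under Z0 versus 0.05 and 0.26 TPM under Z1. It was lower in both Z1 libraries by -1.38 (SE 0.55) but the Z0 libraries differed widely, and the limma adjusted p was 0.182.

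Unigenes named bHLH10, bHLH91, bHLH35, bHLH61 or bHLH93 made up 7 members, of which 0 rose, 1 fell and 6 did not pass. At an unadjusted limma p under 0.05 there were 3 higher and 4 lower, the same numbers lay above and below without overlap, and the median log2 fold change was -1.96. bHLH10 and bHLH91 are redundant regulators of the tapetum, the nursing tissue of the anther, in Arabidopsis. The 246-nt bHLH91 unigene DN28248_c2_g5 was at 6.28 and 8.8 TPM in Z0 and listed at 0 in both Z1 libraries (limma adjusted p = 0.034). The 230-nt bHLH10 unigene DN28248_c2_g8, of the same component, was at 3.81 and 10.71 TPM in Z0 and likewise listed at 0 in both Z1 libraries, and it just missed the threshold (limma adjusted p = 0.0513). Both were thus seen only in the open-grown libraries. In these libraries the flower markers AGAMOUS and DEFICIENS were at no more than 0.53 and 1.01 TPM, and 8 unigenes named pollen-specific summed to 69.2 and 110.54 TPM, against 95.44 and 100.9 TPM in Z1. Whether these short unigenes are bHLH transcripts of the anther type was not tested. No fold is given against the libraries listed at 0.

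bHLH93 promotes flowering under short days in Arabidopsis, and bHLH61 is its close relative. The bHLH61 unigene DN25937_c0_g1 (599 nt) was at 11.93 and 12.96 TPM under Z0 compared with 0.56 and 3.2 TPM under Z1. Both shaded libraries were lower, by -2.39 (SE 0.52), but differed from each other, and the test was not passed (limma adjusted p = 0.0715). The bHLH93 unigene DN32754_c1_g8 went the other way, at 1.91 and 3.23 TPM under Z0, against 17.23 and 5.51 TPM under Z1 (log2 difference 1.63, SE 0.57, limma adjusted p = 0.148). The bHLH35 unigenes of component DN28087_c3 differed in direction as well. DN28087_c3_g2 (1039 nt) was at 7.18 and 12.7 TPM under Z0 versus 23.38 and 23.59 TPM under Z1, and DN28087_c3_g5 (562 nt) at 3.05 and 5.1 TPM under Z0 compared with 0.28 and 0.27 TPM under Z1. Neither overlapped between conditions and neither passed (limma adjusted p = 0.0935 and 0.0509).

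The 31 members outside these groups held 1 called higher and 1 called lower, with a median log2 fold change of 0.26. bHLH41 (DN33086_c0_g1, 1856 nt) was at 0.41 and 0.65 TPM under Z0, against 7.47 and 4.33 TPM under Z1. It rose by 2.14 (SE 0.34, limma adjusted p = 0.0474) and was the only called member longer than 1000 nt. bHLH140 (DN30345_c1_g1, 955 nt) was at 9.18 and 12.61 TPM under Z0 versus 1.26 and 0.89 TPM under Z1. It fell by 2.51 on the log2 scale (SE 0.28, limma adjusted p = 0.0361), with both shaded libraries far below the others. The longer bHLH140 unigene of another component, DN33873_c0_g6 (2460 nt), was at 3.24 and 4.64 TPM under Z0 compared with 5.31 and 4.55 TPM under Z1, with overlapping conditions. The 233-nt bHLH113 unigene DN34178_c0_g1, chosen after its values were seen, was at 3.67 and 6.87 TPM under Z0 compared with 0.87 and 0.62 TPM under Z1. It was lower in both shaded libraries by -1.80 (SE 0.36, limma adjusted p = 0.0612) and passed under median ratio and TMM scaling (0.0489 and 0.0479).

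bHLH130, known in Arabidopsis as an activator of the flowering gene CONSTANS, was represented by 7 unigenes. The most abundant, DN35191_c0_g2 (2349 nt), was at 15.6 and 20.74 TPM under Z0, against 69.47 and 44.23 TPM under Z1. Both shaded libraries were higher by 1.57 (SE 0.31), just outside the threshold (limma adjusted p = 0.0617). Under median ratio and TMM scaling this difference was 1.27 and 1.13. DN31235_c0_g1 (1632 nt) went the other way, at 10.52 and 11.42 TPM under Z0 versus 6.56 and 9.74 TPM under Z1 (log2 difference -0.41, limma adjusted p = 0.38), and DN33966_c0_g2 overlapped, at 17.05 and 15.27 TPM against 10.76 and 21.9 TPM.

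The unigenes named bHLH143, bHLH144 and bHLH145 resemble SAC51, which promotes stem elongation under the control of thermospermine in Arabidopsis. bHLH144 (DN26434_c0_g1, 1754 nt) was at 6.65 and 7.48 TPM under Z0 compared with 17.68 and 16.67 TPM under Z1. The libraries of each condition were close together, with a log2 difference of 1.17 (SE 0.21) that just missed the threshold (limma adjusted p = 0.0549). Under median ratio and TMM scaling this difference was 0.89 and 0.75. Another bHLH144 unigene of that component, DN26434_c0_g3, left out of the members through the circadian pathway, was at 2.53 and 0.94 TPM under Z0 versus 0.05 and 0 TPM under Z1. The sum over the 4 unigenes of the component overlapped between conditions, at 23.91 and 15.04 TPM compared with 17.73 and 16.67 TPM. bHLH143 (DN35480_c0_g1) was nearly level, at 15.6 and 18.08 TPM under Z0, against 18.21 and 18.98 TPM under Z1. Its log2 difference of 0.14 was -0.16 and -0.30 under median ratio and TMM scaling. Both bHLH145 unigenes were slightly higher in both Z1 libraries, by 0.26 and 0.39, which became -0.05 and -0.04 under TMM.

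Of the further abundant members, bHLH123 was represented by 7 unigenes in 3 components. DN30526_c0_g5 (1202 nt) was at 18.03 and 28.11 TPM under Z0 versus 18.89 and 20.29 TPM under Z1, with overlapping conditions. DN32083_c0_g3 (635 nt) was at 2.88 and 5.45 TPM under Z0 compared with 26.36 and 15.57 TPM under Z1, higher in both shaded libraries by 2.09 (SE 0.40, limma adjusted p = 0.0586). bHLH68 (DN34575_c1_g1, 1830 nt) was at 17.71 and 19.79 TPM under Z0, against 28.54 and 29.06 TPM under Z1. Its log2 difference was 0.60 (SE 0.20, limma adjusted p = 0.141), and 0.29 and 0.15 under median ratio and TMM scaling.

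**Figure D3:**
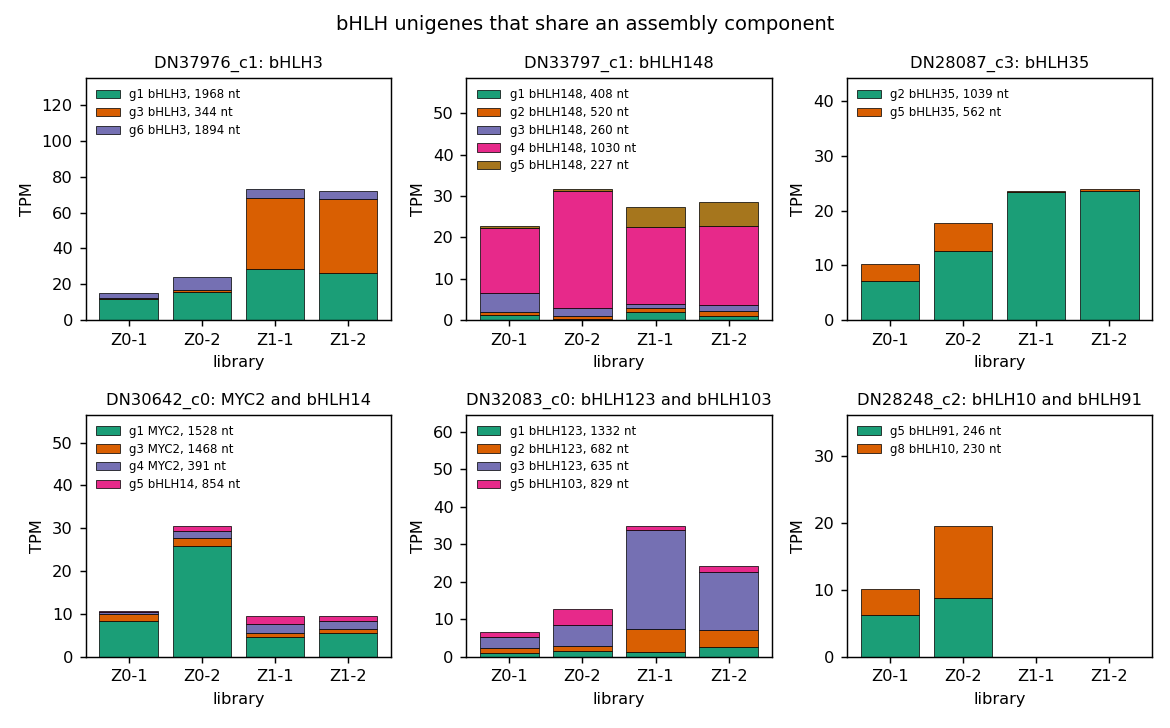
TPM of the members of 6 assembly components in each library, stacked, with 1 colour per member and its length in the legend. In the bHLH148 component the total is 22.86 to 31.59 TPM in all 4 libraries while the short g5 appears in Z1, and in the bHLH3 component the total goes from 15.33 and 23.85 TPM in Z0 to 72.97 and 72.13 TPM in Z1.

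Unigenes of the same component did not always differ in the same direction between conditions. The 5 bHLH148 members of component DN33797_c1 summed to 22.86 and 31.59 TPM under Z0 versus 27.41 and 28.46 TPM under Z1. The sum thus overlapped between conditions although its member DN33797_c1_g5 was called. The bHLH35 members of DN28087_c3 summed to 10.23 and 17.8 TPM under Z0 compared with 23.66 and 23.86 TPM under Z1. This sum was thus higher in both shaded libraries although its members went opposite ways. In the 3 components DN28087_c3, DN30642_c0 and DN33797_c1, at least 1 member was above and at least 1 below between conditions without overlap. The members of DN30642_c0 summed to 10.76 and 30.48 TPM under Z0 against 9.49 and 9.52 TPM under Z1, lower in both shaded libraries.

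When TPM of all unigenes of a component were summed before the fit, 0 of the 65 components that held members passed the limma test in either direction, with 10 higher and 2 lower at an unadjusted p under 0.05. Of all 30459 components only 4 passed as higher and 1 as lower, so this count tells nothing about the members in particular. The bHLH3 component DN37976_c1, with its unnamed unigenes included, was then at 30.39 and 44.7 TPM under Z0, against 87.62 and 84.83 TPM under Z1, a log2 difference of 1.20 (SE 0.25, limma adjusted p = 0.0774). It was higher in both shaded libraries, though by less than its short member. Component DN28248_c2 of bHLH10 and bHLH91 was at 57.82 and 43.66 TPM under Z0 versus 29.25 and 29.73 TPM under Z1 over its 9 unigenes, so other contigs of it were present in the shaded libraries.

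**Figure D4:**
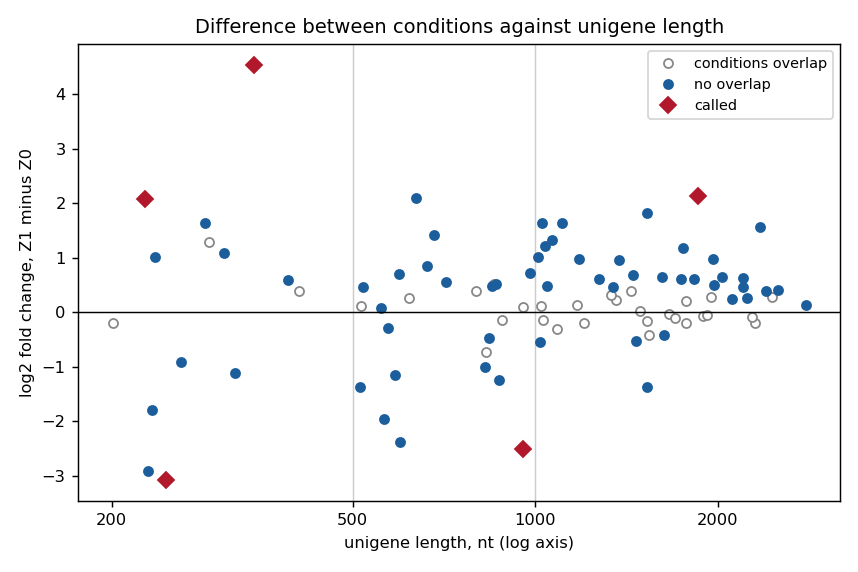
Log2 fold change (Z1 minus Z0, of log2(TPM + 1)) of the 93 members against unigene length on a log axis, with vertical lines at 500 and 1000 nt. Open circles are members whose conditions overlap, filled circles members without overlap and diamonds the 5 called members, of which 3 are shorter than 500 nt.

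Large differences were more frequent in short members. A difference without overlap and beyond 1 on the log2 scale was found in 9 of 14 members under 500 nt (64.3%), 9 of 26 members from 500 to under 1000 nt (34.6%) and 10 of 53 members of 1000 nt and over (18.9%). Over all unigenes the shares in these classes were 33.3%, 26.7% and 19.1%. Among the long members 9 were above and 1 below (2455 and 656 over all unigenes), and in the middle class 2 were above and 7 below (2948 and 1325 over all unigenes). The part of fragmentary assembly in these shares was not tested.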

How the data were processed

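RNA of *S. oblata* leaves was sequenced on an Illumina platform, and reads were assembled de novo with Trinity, with the longest transcript of a gene kept as its unigene. For expression values, reads of different species had been assembled together, according to the study. The authors deposited 1 table of TPM, made with Salmon, with the length and annotation of each unigene. The submitters' processing notes also name cutadapt, FastQC and edgeR, with versions not given in the sources used here. TPM keeps no depth, so the depth of the libraries and its precision are unknown. The labels list 1 sample per condition and give genomic DNA as the molecule, although the extraction text describes RNA. Library columns were assigned to conditions by their names.

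TPM were taken as log2(TPM + 1), and a unigene had to reach 1 TPM in 1 library, which all 73159 did. limma 3.58.1 (R 4.3.3) was fitted with a trended prior and no covariate, Benjamini-Hochberg adjusted over all unigenes, and a call needed an adjusted p under 0.05 and a log2 change beyond 1. Tables were handled in Python 3.11.15 with pandas 2.3.3 and plotted with matplotlib 3.10.9. Fold changes on this scale understate the change of low unigenes. Reads shared between close copies could not be told apart. The alternatives were other pseudocounts, filters, scalings, an unadjusted threshold, a replicate block, leaving out each library, the rice-matched or the carlavirus-matched unigenes, and sums per component.

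The members, role groups and partner lists were chosen with earlier results of these data known. Unigenes were named in full by rule: the bHLH unigene that the study names, called members, the up to 3 most abundant of each role group, the up to 5 largest non-overlapping differences each way among those of 10 TPM or more in the higher condition, and called partners. All other unigenes given with values were chosen after their values were seen.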

Additional observations from a re-analysis of the deposited data

How the results depend on the processing

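The 3 members called higher and 2 called lower became 1 and 1 with a pseudocount of 0.1 (0.484% and 0.272% of all unigenes), 0 and 0 with a pseudocount of 5 (0 of all unigenes, and 3 and 4 members at an unadjusted p under 0.05), and 9 and 4 of 51 members (17.6% and 7.84%, against 12.7% and 4.86% of 31035 unigenes) when at least 5 TPM in 1 library was required. Median ratio and TMM scaling gave 2 and 5 each (2.15% and 5.38%, against 2.12% and 2.48% and against 1.81% and 3.09% of all unigenes), an unadjusted p under 0.05 gave 15 and 9, and leaving out rice-matched unigenes gave 10 and 5. Without carlavirus-matched unigenes 2 and 4 members were called, with sums per component 0 and 0 of 65 components, and without a filter 3 and 2. The rise of bHLH41 was the call lost under both scalings and without the carlavirus unigenes (limma adjusted p = 0.0515, 0.0581 and 0.0524). bHLH10 (0.0468 and 0.045), bHLH35 DN28087_c3_g5 (0.044 and 0.0421) and bHLH113 DN34178_c0_g1 (0.0489 and 0.0479) were called lower under both scalings.

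Leaving out a library gave 0 to 1 members higher and 0 to 0 lower, against 7 to 13 higher and 4 to 9 lower at an unadjusted limma p under 0.05. With Z0 library 1, Z0 library 2 or Z1 library 2 left out no unigene of the table passed, so these counts do not bear on the stability of the members. The lone library of a condition was then assumed to vary like the others. The 1 call, made without Z1 library 1, was bHLH115 DN18166_c0_g1, seen in Z1 library 2 alone (limma adjusted p = 0.0168). With the number in the column names as a replicate block, 3 members were called higher and 4 lower (3.43% and 2.03% of all unigenes). The sources used here do not say whether the numbers pair the libraries. Deviations from the condition mean correlated at -0.09 between libraries of the same number, which cannot decide this.

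The median log2 fold change of the members, 0.28, was 0.41 and 0.15 with pseudocounts of 0.1 and 5, 0.10 with median ratio scaling, -0.04 with TMM, 0.12 without carlavirus-matched unigenes, and 0.21 to 0.41 when a library was left out. Its SD over the 4 contrasts of 1 library against 1 library was 0.09. The log2 difference turned under median ratio scaling, TMM and removal of carlavirus unigenes for bHLH30 DN28134_c0_g2 (-0.10, -0.20 and -0.08), bHLH149 DN28470_c0_g8 (-0.21, -0.35 and -0.19) and ICE1 DN35755_c0_g1 (-0.02, -0.13 and -0.01), and under TMM for MYC2 DN30860_c0_g1 (-0.04). Leaving out a library in turn gave -0.08 to 0.32 for bHLH30 DN28134_c0_g2, -0.15 to 0.33 for bHLH149 DN28470_c0_g8, -0.40 to 0.01 for GL3 DN28741_c0_g2, -0.50 to 0.11 for bHLH123 DN30526_c0_g5, -0.53 to 0.13 for UNE10 DN31454_c2_g1, -0.56 to 0.25 for bHLH148 DN33797_c1_g4 and -0.20 to 0.62 for ICE1 DN35755_c0_g1.

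Over the 36 unigenes named by rule, 416 of their alternative values kept direction and side of the threshold, 49 lost and 16 gained a call, and 19 turned. Part of the 416 was fixed in advance. The setting without a filter repeated the main fit. Where no unigene of the table passed, as with a pseudocount of 5, an uncalled unigene kept its side of the threshold whatever its values. The tally therefore does not measure stability. The cause of these changes was not tested. With 2 libraries per condition and unknown depth, small differences of weak members cannot be resolved.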

Other observations

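The 18 bHLH unigenes set aside through the KEGG circadian pathway alone, outside the counts above, had median levels of 6.51 and 8.57 TPM in the open-grown Z0 libraries compared with 9.83 and 10.16 TPM in the shaded Z1 libraries. The values below were chosen after they were seen and were not tested. bHLH66 (DN29862_c0_g1), a relative of bHLH69, was at 17.5 and 22.47 TPM under Z0 compared with 96.41 and 53.14 TPM under Z1, higher in both shaded libraries. BEE1 (DN31394_c0_g4), an early brassinosteroid response protein that promotes growth in Arabidopsis, was at 5.62 and 9.13 TPM under Z0, against 1.55 and 3.03 TPM under Z1, lower in both. The most abundant UNE10 unigene of that set (DN31858_c0_g1) overlapped between conditions, at 26.47 and 29.67 TPM under Z0 versus 18.63 and 33.99 TPM under Z1, as did UNE12 (DN37247_c0_g2), at 22.18 and 32.96 TPM under Z0 compared with 41.4 and 30.93 TPM under Z1.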
